A study of Mus musculus with 6 samples.

Results

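The DMRT family of transcription factors was followed in whole testes of mice on postnatal day 5. Its members were taken as the rows of the deposited gene table whose Ensembl identifiers map to 10 listed DMRT symbols. The rule uses no measured value, though the family was picked with earlier results of these data known. All 10 were found among the 57170 identifiers of the table: Dmrt1, Dmrt2, Dmrt3, Dmrta1, Dmrta2, Dmrtb1, Dmrtc1a, Dmrtc1b, Dmrtc1c2 and Dmrtc2. The mutant testes, here sKO, carried a conditional knockout of Mdm2, the gene of the ubiquitin ligase that curbs p53, in pre-meiotic germ cells, and gave 4 libraries (sKO-1 to sKO-4). Wild-type testes (WT) of that age gave 2 libraries, WT-1 and WT-2. The sources used here give no Cre line or promoter, strain or number of animals per library. The p-values therefore measure the spread between these libraries, which may be technical.

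DMRT proteins bind DNA through the DM domain, a zinc-binding module named after the sex regulators doublesex of the fly and MAB-3 of the worm. In the mouse testis DMRT1 is made in Sertoli cells, the somatic nurse cells, where it holds male identity against ovarian genes such as Foxl2, and in spermatogonia, where it restrains entry into meiosis. DMRTB1, also called DMRT6, acts in spermatogonia as they pass from mitosis to meiosis, and DMRTC2, also called DMRT7, is needed later, in meiotic prophase. At this age the cords hold Sertoli cells and spermatogonia, and meiosis has not begun.

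Expected counts, estimated reads per gene that need not be whole, summed to 17990837 to 18394437 per library. Levels are given as CPM, counts scaled to a common library total after TMM normalization. Mdm2 itself averaged 43.0 ± 4.24 CPM in sKO (SD, n = 4) and 71.6 ± 6.17 CPM in WT (SD, n = 2), the log2 fold change being -0.74 (SE 0.11, edgeR adjusted p = 0.0241, or 4.42e-05 to 0.171 over the alternatives tried). The libraries stood apart in a way that the labels do not name. Principal component 1, which held 38.1% of the variance, set sKO-1, sKO-2 and WT-1 (subset 1) apart from sKO-3, sKO-4 and WT-2 (subset 2). Each subset holds both genotypes, so values within each are given beside the results. WT-1 is the only WT library of subset 1 and WT-2 that of subset 2, so values within a subset carry no WT spread. Members of the family were compared in edgeR's quasi-likelihood test over all 17707 genes that passed a count filter, with Benjamini-Hochberg adjustment over all of them and a threshold of 0.05.

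Of the 10 members, 6 passed the count filter and were tested. Dmrtb1 and Dmrtc1c2 fell in sKO testes, and 0 members rose. Both passed the filter, with its minimum count of 10, only through the WT libraries, where they are high. In sKO Dmrtc1c2 had at most 5 counts in a library, and Dmrtb1 passed 10 counts in sKO-4 alone. The number of members lower therefore depends on the filter, as do the other counts and the median of the 6 members given below. Across all genes tested, 2.30% were called lower and 0.124% higher. DESeq2 and limma-voom also called 2 members lower and 0 higher, and at an unadjusted p under 0.05 edgeR had 4 lower and 0 higher. In 4 of the 6 tested members (Dmrt1, Dmrtb1, Dmrta1 and Dmrtc1c2) every sKO library lay below both WT libraries, an arrangement found at 13.3% of all genes tested, and 0 members had every sKO library above both, beside 9.74% of all genes. In bulk testis RNA, fewer cells of a type and less RNA per cell cannot be told apart, and the summed markers of germ cells, described further on, were at 20.4% of WT in sKO. The median log2 fold change was -0.38 over the 6 members and 0.03 over all genes tested. Dmrtb1 and Dmrtc1c2 enter that median, and the other tested members, Dmrt1, Dmrta1, Dmrt3 and Dmrtc1a, were at -0.45, -0.31, -0.18 and 0.01.

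**Figure D1:**
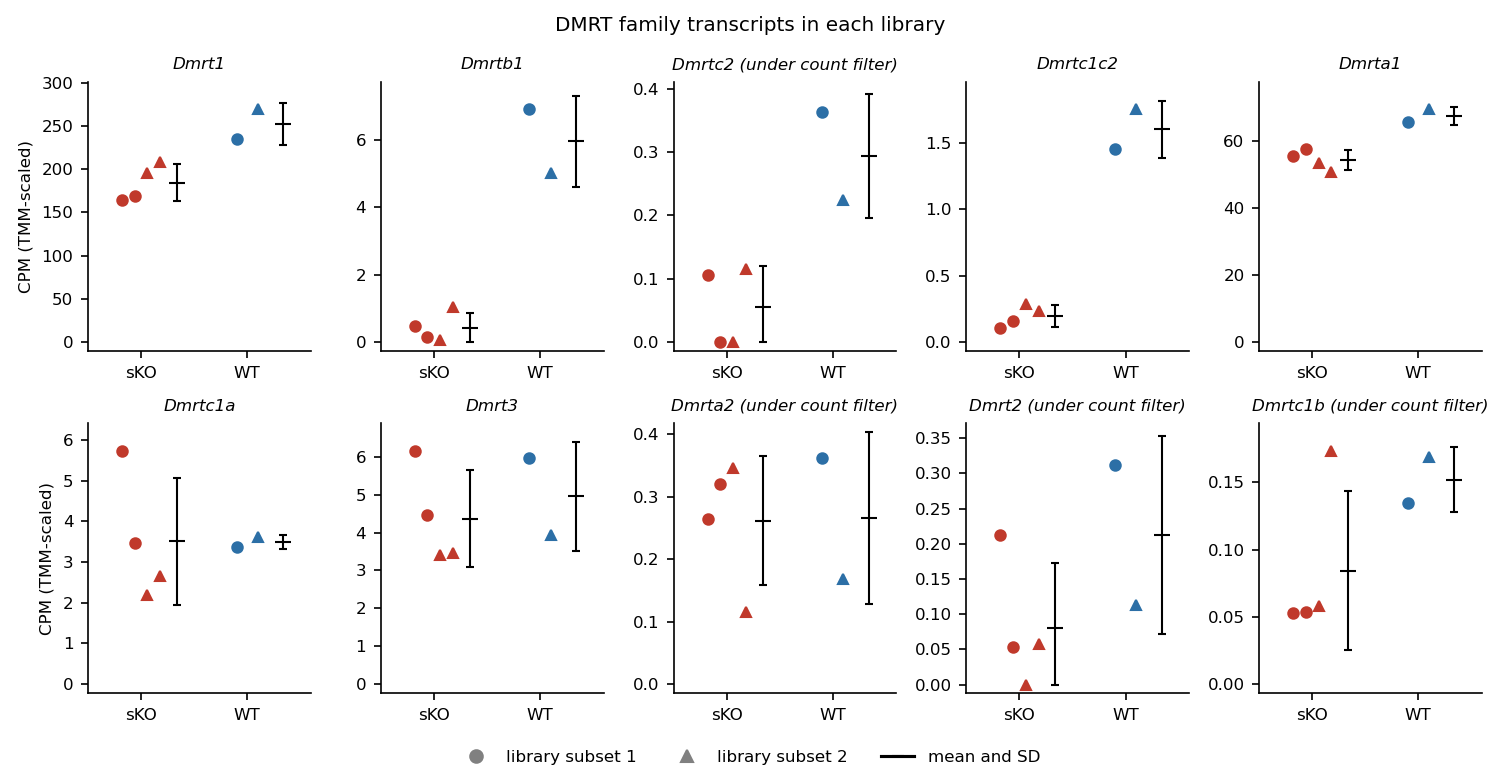
CPM of the 10 DMRT members in each sKO (left, red) and WT (right, blue) library, with circles and triangles for the library subsets and black bars for the mean and SD, cut at 0 where they would pass below it. Dmrtb1 and Dmrtc1c2 sit near the bottom of their panels in sKO, while Dmrt3 and Dmrtc1a overlap between the groups.

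Dmrtb1 (ENSMUSG00000028610, chromosome 4) showed the largest fold change among the tested members. It stood at 0.476, 0.161, 0.0578 and 1.04 CPM across sKO-1 to sKO-4, against 6.91 and 5.01 CPM in WT-1 and WT-2. The groups did not overlap. The means were 0.434 ± 0.442 CPM in sKO (SD, n = 4) and 5.96 ± 1.34 CPM in WT (SD, n = 2), the log2 fold change being -3.77 (SE 0.70, edgeR adjusted p = 0.0398). The sKO values rest on 9, 3, 1 and 18 counts in sKO-1 to sKO-4, against 133 and 89 counts in WT-1 and WT-2, so counting error is not small in sKO. Mean Dmrtb1 in sKO was 4.61% of WT within subset 1 and 10.9% within subset 2. The call did not survive leaving out WT-1 (edgeR adjusted p = 0.312) or WT-2 (0.0966), nor leaving out sKO-3 (0.0622), sKO-2 (0.0968) or sKO-1 (0.101). It held without sKO-4 (0.0259). Over all alternatives tried the adjusted p ran from 9.47e-05 to 0.312.

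The windows around the upstream RefSeq start of Dmrtb1 and of Dmrtc1c2 are shown because these are the members that fell. Both genes have 2 windows in the table. Each sequence runs 5′ to 3′ from 250 bases before the start to 50 after it, in the table's build GRCm38.p6, while the submitters' processing notes name mm39. Capitals mark the E-box CANNTG, the motif bound by bHLH factors such as SOHLH1 and SOHLH2, searched on both strands.
Dmrtb1 (chr4:107684181-107684480, minus strand): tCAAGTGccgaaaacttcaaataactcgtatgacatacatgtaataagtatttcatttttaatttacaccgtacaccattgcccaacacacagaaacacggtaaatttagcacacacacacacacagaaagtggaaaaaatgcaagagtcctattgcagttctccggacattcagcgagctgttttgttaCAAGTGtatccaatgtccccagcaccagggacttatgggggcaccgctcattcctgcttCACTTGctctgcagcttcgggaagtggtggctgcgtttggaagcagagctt
Dmrtc1c2 (chrX:102854567-102854866, minus strand): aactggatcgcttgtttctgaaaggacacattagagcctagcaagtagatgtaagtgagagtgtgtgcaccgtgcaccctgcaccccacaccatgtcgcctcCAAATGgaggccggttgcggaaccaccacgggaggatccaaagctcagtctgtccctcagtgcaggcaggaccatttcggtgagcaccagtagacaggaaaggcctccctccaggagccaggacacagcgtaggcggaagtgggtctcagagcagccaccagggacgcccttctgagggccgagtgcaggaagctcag
The Dmrtb1 window held 3 E-boxes and the Dmrtc1c2 window 1, and 72.3% of the 32851 windows of the table hold at least 1. The core of the DMRT1 consensus, ACANTGT, searched on both strands and able to overlap an E-box only in part, was in neither window and was in 7.54% of all windows. The CpG ratio, observed over expected from base composition, was 0.606 in the Dmrtb1 and 0.427 in the Dmrtc1c2 window, beside a median of 0.384 over all windows. Of the members, 9 have at least 1 window in the table, 14 windows in all.

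Dmrtc1c2 (ENSMUSG00000067561, chromosome X) was the other member that fell. It belongs to a cluster of Dmrtc1 copies on the X chromosome. Its level was 0.106, 0.155, 0.289 and 0.231 CPM across sKO-1 to sKO-4, against 1.45 and 1.75 CPM in WT-1 and WT-2. All 4 sKO libraries lay far below both WT libraries, and the log2 fold change was -2.99 (SE 0.45, edgeR adjusted p = 0.0214). Within subset 1 mean Dmrtc1c2 in sKO was 9.02% of WT, and within subset 2 it was 14.8%.

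The best aligned annotated transcripts of Dmrtc1c2 and its neighbour Dmrtc1c1 are identical over 1611 bases, so reads from that stretch cannot be told apart by sequence. Summed over both copies there were 2, 3, 5 and 4 counts in sKO-1 to sKO-4, against 32 and 33 counts in WT-1 and WT-2. The summed row gave -3.13 on the log2 scale (SE 0.44, edgeR adjusted p = 0.0188). Thus the fall did not hang on how reads were split between the copies, but the copy it belongs to is uncertain. The Dmrtc1c2 call did not survive leaving out WT-1 (edgeR adjusted p = 0.201) or WT-2 (0.109), nor leaving out sKO-2 (0.0691) or sKO-1 (0.0517). It held without sKO-3 (0.0455) or sKO-4 (0.0499), and over all alternatives the adjusted p ran from 0.00261 to 0.201.

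Dmrtc2, the meiotic prophase member, was barely detected and was not tested. Its counts were 2, 0, 0 and 2 across sKO-1 to sKO-4, against 7 and 4 in WT-1 and WT-2. A count of 0 allows a level of up to 0.161 CPM in sKO-2 and 0.173 CPM in sKO-3, taken as 3 counts and covering counting error only. The WT levels, 0.363 and 0.225 CPM, were little above that, so no fold change is given.

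Dmrt1 (ENSMUSG00000024837, chromosome 19), the member that Sertoli cells and spermatogonia share, was the most abundant of the family. It stood at 164, 169, 196 and 208 CPM across sKO-1 to sKO-4, against 235 and 269 CPM in WT-1 and WT-2. Every sKO library lay below both WT libraries, and subset 2 was the higher subset in both genotypes. The means were 184 ± 21.4 CPM in sKO (SD, n = 4) and 252 ± 24.4 CPM in WT (SD, n = 2). The log2 fold change of -0.45 (SE 0.12) did not pass the test (edgeR adjusted p = 0.137, unadjusted p = 0.00665). Mean Dmrt1 in sKO was 70.9% of WT within subset 1 and 75.1% within subset 2.

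The Dmrt1 call depended on the model. With the library subset as a term, chosen after the subsets had been seen, the log2 fold change was -0.45 (SE 0.05, edgeR adjusted p = 0.00112). That fit called 4 of the 6 tested members lower (Dmrt1, Dmrta1, Dmrtb1 and Dmrtc1c2) and 0 higher, where it called 8.65% of all genes lower and 4.97% higher. With library sizes set to the summed Sertoli list, the Dmrt1 log2 fold change was -0.66 (SE 0.08, adjusted p = 0.0132). That scaling called 3 members lower, beside 4.12% of all genes, and 0 higher, beside 0.0452%, and moved the median of all genes to -0.18, against 0.03 with TMM. Within subset 1 alone 3 members were called lower (Dmrt1, Dmrtb1 and Dmrtc1c2) and 0 higher, beside 5.15% and 1.53% of all genes. Within subset 2 alone 2 were lower (Dmrt1 and Dmrta1) and 0 higher, beside 3.22% and 1.52%. Over all 17 alternatives the log2 fold change of Dmrt1 ran from -0.66 to -0.38 and its adjusted p from 0.00112 to 0.380.

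Dmrta1 (ENSMUSG00000043753, chromosome 4), also called DMRT4, was the second most abundant member. It stood at 55.6, 57.5, 53.4 and 50.6 CPM across sKO-1 to sKO-4, against 65.6 and 69.4 CPM in WT-1 and WT-2. The groups did not overlap and the spread within each was small. The log2 fold change was -0.31 (SE 0.09), which did not pass over all genes (edgeR adjusted p = 0.157, unadjusted p = 0.00852) and passed with the subset term (adjusted p = 0.0171). The adjusted p ran from 0.0171 to 0.479 over the alternatives. Mean Dmrta1 in sKO was 86.2% of WT within subset 1 and 74.9% within subset 2.

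Dmrt3 and Dmrtc1a overlapped between the groups. Dmrt3, known from the spinal interneurons that shape gait, had 6.14, 4.45, 3.41 and 3.47 CPM in sKO-1 to sKO-4, against 5.97 and 3.94 CPM in WT-1 and WT-2. In both genotypes its subset 1 libraries were the higher ones, and the log2 fold change was -0.18 (SE 0.32, edgeR adjusted p = 0.892). Dmrtc1a, on the X chromosome, had 5.72, 3.48, 2.19 and 2.66 CPM in sKO-1 to sKO-4, against 3.37 and 3.61 CPM in WT-1 and WT-2. The sKO libraries lay on both sides of WT, and the log2 fold change was 0.01 (SE 0.39, edgeR adjusted p = 0.997). The highest-scoring alignment of its transcripts with those of Dmrtc1b was 66.7% identical over 828 bases. Only that alignment was kept, so shorter stretches may be more alike. Whether reads of these 2 genes can be told apart was not tested.

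The 3 remaining members stayed under the count filter. Dmrta2, also called DMRT5 and known from the developing cortex, had 2 to 6 counts in the sKO libraries, against 7 and 3 counts in WT-1 and WT-2. Dmrt2, known from somite patterning, had 0 to 4 counts in sKO, against 6 and 2 in WT-1 and WT-2. Dmrtc1b had 1 to 3 counts in sKO, against 2.6 and 3 expected counts in WT-1 and WT-2. None of these values was large enough to show a difference at this depth.

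Levels of different genes were set side by side as CPM per kb of annotated exon. In WT the order was Dmrt1 at 97.2 ± 9.42 CPM per kb, Dmrta1 at 16.1 ± 0.646, Dmrtb1 at 2.86 ± 0.642, Dmrtc1a at 2.51 ± 0.118, Dmrt3 at 2.03 ± 0.586 and Dmrtc1c2 at 0.978 ± 0.133 (SD, n = 2). The WT ranges of Dmrtb1 and Dmrtc1a overlapped, and so did those of Dmrtc1a and Dmrt3, so 2 libraries do not settle the order within these pairs. Dmrtb1 was above Dmrt3 in each WT library, at 3.32 against 2.44 CPM per kb in WT-1 and 2.41 against 1.61 in WT-2. In sKO, Dmrt1 was at 71.1 ± 8.26, Dmrta1 at 12.9 ± 0.709, Dmrtc1a at 2.53 ± 1.13, Dmrt3 at 1.79 ± 0.522, Dmrtb1 at 0.208 ± 0.212 and Dmrtc1c2 at 0.119 ± 0.0494 CPM per kb (SD, n = 4). In sKO every library had Dmrtb1 below the lowest library of Dmrtc1a and of Dmrt3. The 4 members under the count filter averaged at most 0.0897 CPM per kb in sKO and 0.182 CPM per kb in WT.

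**Figure D2:**
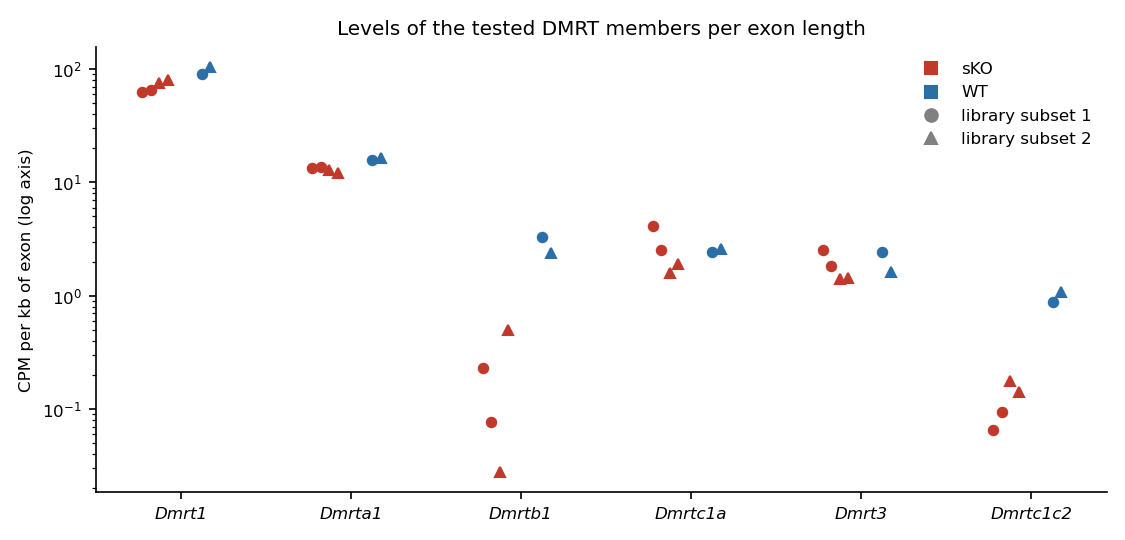
CPM per kb of exon, on a log axis, for the 6 tested members, with sKO libraries in red to the left of WT libraries in blue and symbols for the library subsets. Dmrt1 lies highest in both groups, and Dmrtb1 and Dmrtc1c2 are the members whose red and blue points lie farthest apart.

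Markers of germ cells were set beside the members. All 16 pan-germ-cell genes tested fell in edgeR and 0 rose. Their median log2 fold change was -2.30. Their summed level ran from 130 to 219 CPM in the sKO libraries and was 710 and 1020 CPM in the WT libraries, so that the sKO mean was 20.4% of the WT mean. Dazl, whose protein binds RNA in germ cells, was at -2.34 on the log2 scale (SE 0.22, edgeR adjusted p = 0.00929), and Fkbp6, Rnf17 and Tex15 were at -2.06, -2.29 and -1.96. Against that 20.4%, mean Dmrtb1 in sKO was 7.28% of WT, Dmrtc1c2 12.2%, Dmrt1 73.2%, Dmrta1 80.4%, Dmrt3 88.0% and Dmrtc1a 101%. The part of the germ cell markers in the fall of Dmrtb1 and Dmrtc1c2 was not tested.

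Within each library the members were set against one another and against the marker sums, in exact permutation tests over the 15 assignments of 2 of the 6 libraries, two-sided, where the smallest p is 0.067. The log2 ratio of Dmrtb1 to Dmrt1, with 0.1 CPM added to each, was -8.15, -9.34, -10.28 and -7.51 in sKO-1 to sKO-4, against -5.07 and -5.72 in WT-1 and WT-2. Dmrtb1 was thus lower relative to Dmrt1 in all 4 sKO libraries, by a difference of -3.43 (exact permutation p = 0.067, or 0.0889 adjusted over the 4 ratios). With 1 CPM added the difference was -1.86, since Dmrtb1 itself is under 1 CPM in most sKO libraries.

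The log2 ratio of Dmrt1 to the summed Sertoli list was -4.97, -4.88, -4.80 and -4.76 in sKO-1 to sKO-4, against -4.15 and -4.23 in WT-1 and WT-2. Dmrt1 was lower relative to Sertoli transcripts in every sKO library, by -0.66 over all libraries, -0.77 within subset 1 and -0.55 within subset 2 (exact permutation p = 0.067, adjusted 0.0889). Relative to the pan-germ-cell sum Dmrt1 was higher in every sKO library. That log2 ratio averaged 0.10 ± 0.42 in sKO (SD, n = 4) and -1.76 ± 0.51 in WT (SD, n = 2), a difference of 1.86 with the same exact permutation p and adjusted p. Both ratios reached the smallest p that this test allows, 0.067, so neither could pass a threshold of 0.05. Both rest on summed lists. Of the 13 tested Sertoli genes, 1 had a log2 fold change at least as low as that of Dmrt1, the lowest of the list being -0.77.

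The log2 ratio of Dmrtb1 to the pan-germ-cell sum averaged -8.72 ± 0.89 in sKO (SD, n = 4) and -7.15 ± 0.05 in WT (SD, n = 2). The difference of -1.57 had an exact permutation p of 0.133. With 1 CPM added in place of 0.1 it was -0.01. That amount is above the mean Dmrtb1 level in sKO, 0.434 CPM, and small beside the pan-germ-cell sum. It therefore shrinks the Dmrtb1 change alone, and the -0.01 cannot decide the question. Whether Dmrtb1 was lower than germ cell transcripts as a whole is therefore not settled by these counts.

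**Figure D3:**
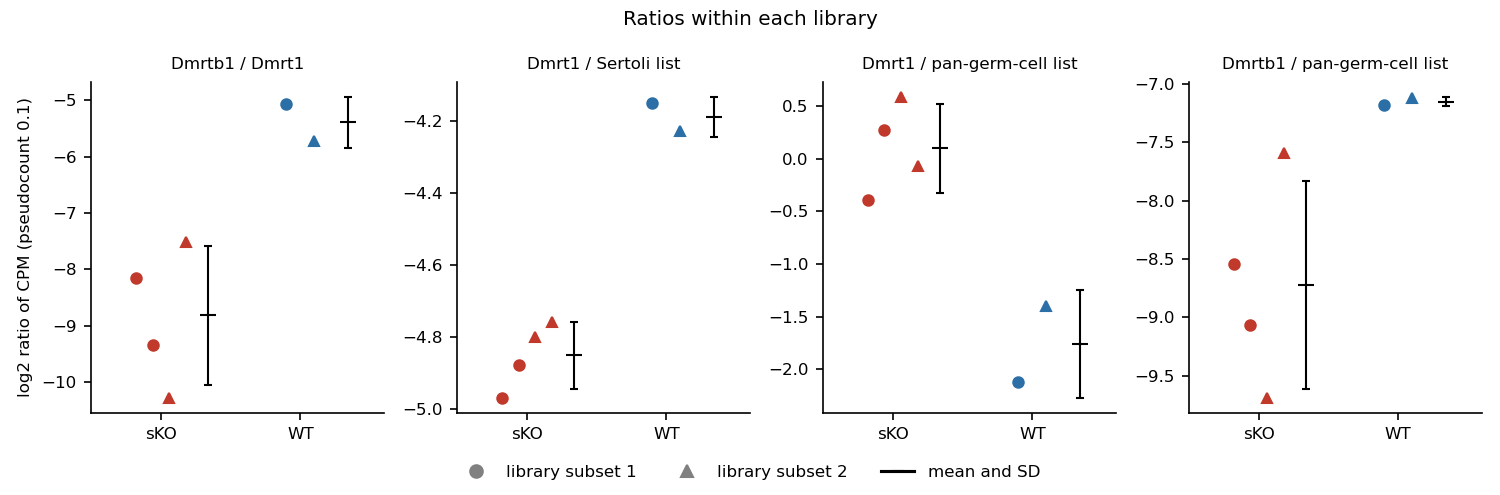
log2 ratios of CPM within each library, with sKO libraries left (red) and WT libraries right (blue), symbols for the library subsets and bars for the mean and SD. The first pair of panels shows lower values in all sKO libraries, the third higher values, and the fourth a wide spread in sKO.

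Genes that act around Dmrt1 and Dmrtb1 in spermatogonia were described from a list of differentiation and meiotic entry. Of 15 tested, 8 fell and 0 rose, with a median log2 fold change of -1.88 and a range of -3.87 to 0.46. The genes named below are the called ones with the smallest adjusted p, so they do not stand for the whole list. The summed level of the list was 624 to 725 CPM in the sKO libraries, against 783 and 795 CPM in the WT libraries. The sKO mean of that sum was 88.4% of WT, so the sum, in which abundant genes weigh most, fell less than the median gene. At an unadjusted p under 0.05 edgeR had 11 lower and 2 higher, and DESeq2 called 9 lower and 1 higher. Stra8, the retinoic acid induced gatekeeper of meiosis that DMRT1 represses in mouse spermatogonia, averaged 1.85 ± 0.988 CPM in sKO (SD, n = 4) and 27.0 ± 4.44 CPM in WT (SD, n = 2), the log2 fold change being -3.87 (SE 0.37, edgeR adjusted p = 0.00929). Sohlh1, which DMRT1 activates there, averaged 1.52 ± 0.490 and 12.8 ± 3.08 CPM in sKO and WT, the log2 fold change being -3.07 (SE 0.31, edgeR adjusted p = 0.00970). Its partner Sohlh2 was at -1.94 and the chromatin regulator Scml2 at -1.88, with adjusted p of 0.0110 and 0.00929. Stra8 and Sohlh1 were thus both lower, in testes whose summed pan-germ-cell markers were at 20.4% of WT. Any part of DMRT1 in these falls was not tested.

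Of 13 tested genes of undifferentiated spermatogonia and pluripotency, 6 fell and 0 rose, with a median of -1.69 and sums of 169 to 218 CPM in the sKO libraries, against 339 and 427 CPM in the WT libraries. Zbtb16, a repressor that keeps spermatogonia undifferentiated, was at -2.25 on the log2 scale (SE 0.28, edgeR adjusted p = 0.0138). Sox3, Lin28a and Sall4 were at -3.95, -2.32 and -2.06, with adjusted p of 0.0110, 0.0110 and 0.0235. Without WT-1, 0 genes of the pan-germ-cell, differentiation and undifferentiated lists were called, as against 16, 8 and 6. Without any other library in turn, 12 to 14, 8, and 3 to 5 were called, all of them lower. With the subset term 16, 11 and 11 were lower, and 2 genes of the differentiation list were higher.

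Sertoli and ovarian genes are the other side of DMRT1 biology. Of 13 tested Sertoli genes, 1 rose and 0 fell, with a median of 0.17 and summed levels of 4980 to 5660 CPM in sKO libraries, against 4180 and 5070 CPM in WT libraries. At an unadjusted p under 0.05 edgeR had 3 higher and 2 lower, DESeq2 called 2 higher and 1 lower, and limma-voom 1 higher and 0 lower. The gene that rose was Amh, anti-Müllerian hormone, at 0.45 on the log2 scale (SE 0.09, edgeR adjusted p = 0.0429), a call lost without any 1 library (0.0696 to 0.323) and with adjusted p from 0.000153 to 0.323 over all alternatives. Of 10 tested genes of the ovarian pathway, which DMRT1 is known to hold down in Sertoli cells, 0 passed in edgeR, DESeq2 or limma-voom, and at an unadjusted p under 0.05 edgeR had 1 higher and 1 lower. The ovarian genes summed to 78.3 to 88.5 CPM in sKO libraries, against 70.5 and 74.1 CPM in WT libraries, with a median log2 fold change of 0.17. With Sertoli library sizes the medians turned to -0.04 for the Sertoli and -0.05 for the ovarian list. The oestrogen receptor genes Esr1 and Esr2 were at 0.35 (SE 0.11, adjusted p = 0.207) and 0.72 (SE 0.35, adjusted p = 0.448). With the subset term 4 Sertoli genes were higher and 2 lower, and 2 ovarian genes were higher and 1 lower.

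Markers of the other cells of the testis were checked beside these. Of 17 tested Leydig, endothelial and macrophage genes 0 passed in edgeR, DESeq2 or limma-voom, and 0 had an unadjusted p under 0.05 in edgeR. With the subset term 1 of them, Cdh5, was higher (0.27, edgeR adjusted p = 0.0195). Within subset 2 alone Cdh5 was at 0.31 and Hsd3b1 at 0.27 on the log2 scale. Hsd3b1 and Hsd17b3 of Leydig cells were at 0.26 (SE 0.12) and 0.20 (SE 0.15), Cdh5 and Eng of endothelium at 0.27 (SE 0.13) and 0.22 (SE 0.10), and Lyz2 and Csf1r of macrophages at 0.20 (SE 0.14) and -0.19 (SE 0.15). Of 5 peritubular myoid genes, 1 fell and 0 rose: Cnn1, a calponin of smooth muscle, at -1.73 (SE 0.30, edgeR adjusted p = 0.0323), a call lost without any 1 library. At an unadjusted p under 0.05 edgeR had 3 myoid genes lower and 0 higher, DESeq2 called 2 lower and 0 higher, and the subset term gave 3 lower and 0 higher. The median of the myoid list was -0.27 and its sum in sKO was 83.2% of WT. Of the tested genes, 2 myoid and 2 ovarian ones had log2 fold changes at least as low as that of Dmrt1, the lowest ovarian one being -0.85. Leydig genes summed to 811 to 1230 CPM in sKO libraries, against 736 and 928 CPM in WT libraries. Endothelial genes summed to 273 to 339 CPM in sKO, against 251 and 278 CPM in WT. The macrophage sums were 52.2 to 64.1 CPM in sKO, against 55.4 and 56.5 CPM in WT, and the myoid sums 498 to 663 CPM in sKO, against 626 and 806 CPM in WT. No marker was at 0 in all libraries. Which cells gave rise to the DMRT transcripts was not tested.

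**Figure D4:**
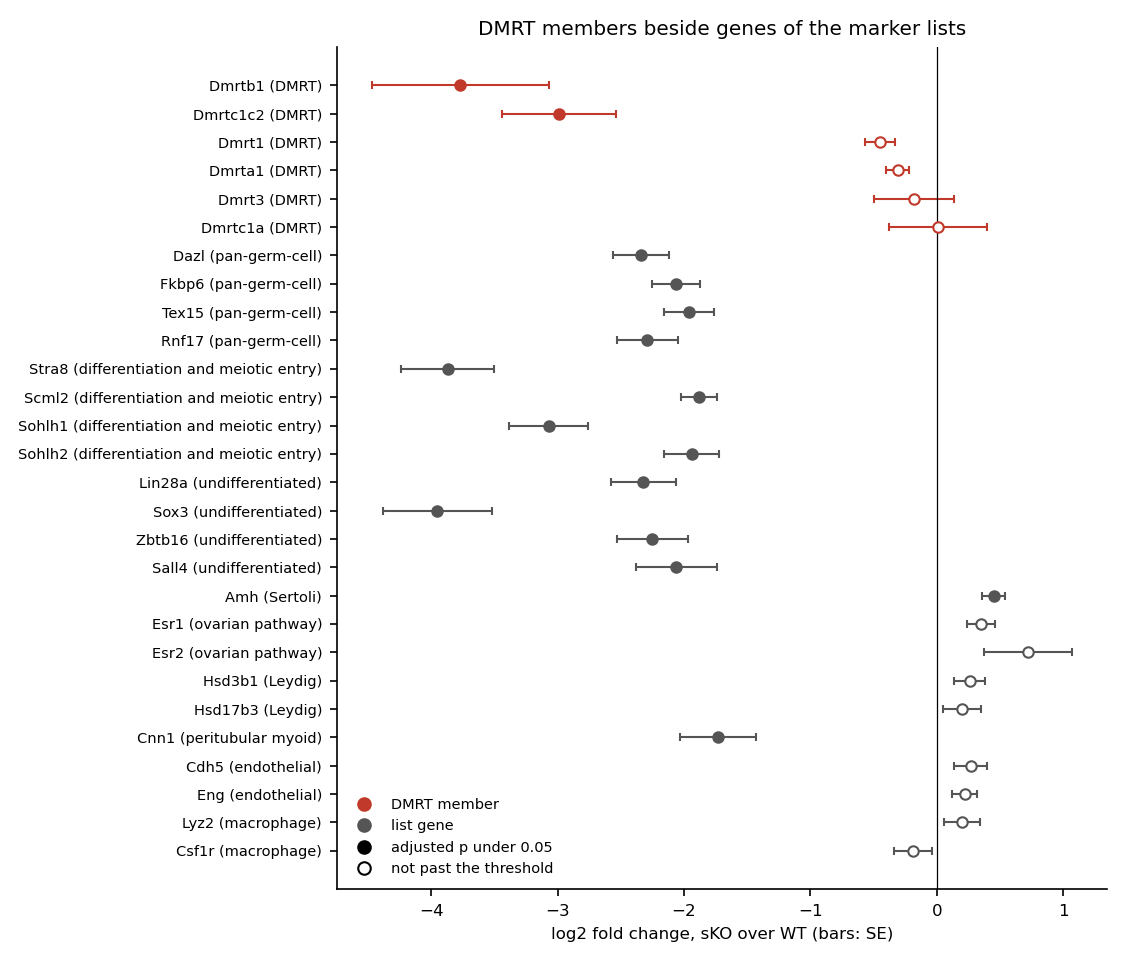
log2 fold change of sKO over WT with its SE for the 6 tested DMRT members (red) and the genes named from the marker lists (grey), filled where the edgeR adjusted p is under 0.05. Dmrtb1 (-3.77) and Dmrtc1c2 (-2.99) lie among the germ cell genes drawn. Dmrt1 (-0.45) and Dmrta1 (-0.31) lie nearer 0 than these and than Cnn1 (-1.73). The germ cell genes and Cnn1 were drawn as called genes with the smallest adjusted p of their lists, so the gap follows in part from that choice. Over all tested genes the differentiation and meiotic entry list reached 0.46 and the undifferentiated list -0.07.

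Neighbouring genes were read for each tested member from the GRCm38 annotation, used for gene order only. On chromosome 19 Kank1, a regulator of the actin cytoskeleton, lies before Dmrt1, with Dmrt3 and Dmrt2 after it. Kank1 had 79.6 to 90.9 CPM in the sKO libraries, against 74.3 and 86.9 CPM in WT-1 and WT-2. The groups overlapped and the log2 fold change was 0.09 (SE 0.10, edgeR adjusted p = 0.820). Its sign turned to -0.11 with Sertoli library sizes. On chromosome 4 Dmrtb1 lies between Glis1, a zinc finger factor gene, and Lrp8, a receptor for reelin. Glis1 had 0.688, 0.643, 0.751 and 0.462 CPM in sKO-1 to sKO-4, against 2.65 and 3.10 CPM in WT-1 and WT-2. It fell by 2.16 on the log2 scale (SE 0.31, edgeR adjusted p = 0.0199, or 0.000483 to 0.183 over the alternatives), on the opposite strand to Dmrtb1. Lrp8 was at -0.34 (SE 0.18, adjusted p = 0.491), and Cdkn2b, the CDK inhibitor gene beside Dmrta1, at -0.14 (SE 0.39, adjusted p = 0.937). Zfp352, on the other side of Dmrta1, had 0 counts in all 6 libraries, and 1700031F05Rik, between the Dmrtc1c2 and Dmrtc1a genes, had 1 count in WT-2 and 0 elsewhere. These neighbours are the nearest protein-coding genes that do not overlap the member, and genes that overlap one were not listed. The sources used here do not say if counting used strand. Reads of a gene that overlaps a member on the opposite strand, if any, may thus be mixed with its own.

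Genes whose profile over the 6 libraries was most like a member were ranked by the root mean square distance between log2 CPM profiles, each centred on its own mean. For Dmrtb1 the 5 nearest were Stra8 (0.496), Sox3 (0.549), Pnma5 (0.652), Fam90a1b (0.664) and Tex16 (0.704). For Dmrt1 they were Cdc34 (0.0286), Fam49a (0.0337), Rassf3 (0.0354), Ddx20 (0.0361) and Taldo1 (0.0410). In each of these 10 genes every sKO library lay below both WT libraries, an arrangement found at 13.3% of all genes tested. Dmrtb1 and Dmrt1 have it too, so picking by likeness to them favours it and it is no separate result. The rankings moved with the libraries: leaving out 1 library kept 3 to 4 of the 5 for Dmrtb1 and 1 to 4 for Dmrt1, with 1 shared without WT-2.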

How the data were processed

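Whole testes were profiled by RNA-seq of polyadenylated RNA, per the labels. A single table of expected counts, deposited by the authors, covers all 6 libraries; fastp, STAR, RSEM and mm39 are named in the submitters' processing notes, without roles or versions. RSEM divides reads shared by several genes. Where the design text has 3 replicates a group, the labels give 4 sKO and 2 WT, and the labels were followed. Libraries of a group differed beyond sampling noise. The chi-square per gene was 6.83 for sKO-1 and sKO-2 and 4.08 for sKO-3 and sKO-4, and 20.3 to 24.7 for pairs across the subsets. Each library was counted as 1 replicate, though these values do not show that the libraries came from different animals. The 444 identifiers without an Ensembl form hold 0.326% of counts; symbols from GENCODE M21 (GRCm38) matched 90.5% of identifiers.

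Expected counts were rounded, filtered with filterByExpr (minimum count 10), TMM-scaled and tested with edgeR 4.0.16 in R 4.3.3; alternatives used DESeq2 1.42.0 and limma 3.58.1. SE is the size of the log2 fold change divided by the root of F. Log2 CPM profiles carry a prior count of 2. Transcripts were compared with BLAST 2.17.0.

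Members and lists were chosen with earlier results of these data known. Named genes are all members, Mdm2, up to 4 called genes with the smallest adjusted p per list (or the 2 most abundant), neighbours, and the 5 nearest profiles with a mean of at least 1 CPM. Of 95 list genes 94 matched. The library subset fits, the fit of the libraries numbered 1 and 2 without a block and the summed copies were added after seeing the data.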

Additional observations from a re-analysis of the deposited data

Results flagged for a closer look

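Of 24 values checked over the 4 sKO libraries (members, ratios, Mdm2 and the summed lists), 2 had a library far from the other 3 by Dixon's criterion, and chance gives about 1 in 20. Dmrtc1b was at 0.173 CPM in sKO-4, where the other sKO libraries lay between 0.0529 and 0.0578 CPM; this is 3 counts against 1 in each of the others. The summed differentiation and meiotic entry list was at 624 CPM in sKO-2, with the highest sKO library at 725 CPM.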

How the results depend on the processing

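Over all genes, 22 were higher and 408 lower in sKO. DESeq2 gave 112 and 685, Sertoli library sizes 8 and 729, the subset term 880 and 1531, subset 1 alone 282 and 946, and subset 2 alone 267 higher. Leaving out 1 library gave 2 to 7 higher and 1 to 225 lower, the low end of both without WT-1. The labels do not say that replicate numbers pair the libraries. The correlation of deviations from the group mean was 0.416 for number 1 and -0.441 for number 2. The deviations of the 2 WT libraries mirror each other, so these correlations cannot settle whether the libraries are paired. The replicate block, in the 4 libraries numbered 1 and 2, gave 19 higher and 268 lower, against 9 and 187 in these libraries with no replicate block, and left the calls of the 6 members as they were.

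The number of members lower was 2. It was 0 when 1 CPM in 4 libraries was required, which removes Dmrtb1 and Dmrtc1c2, 4 with the subset term, and 0 to 2 when 1 library was left out (0 without WT-1, WT-2, sKO-1 or sKO-2). Dmrt1 passed with Sertoli library sizes (-0.66) and the subset term (-0.45), and was at -0.52 within subset 1 and -0.42 within subset 2. Dmrta1 passed with the subset term (-0.32), and was at -0.24 within subset 1 and -0.42 within subset 2. Within subset 2 Dmrtb1 was at -3.18 and Dmrtc1c2 at -2.72. Left-out libraries gave -4.65 to -3.41 for Dmrtb1 and -3.23 to -2.79 for Dmrtc1c2. The cause of these moves was not tested.

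Signs turned for Dmrt3 with the block (0.09), in the same libraries without it (0.08) and among left-out libraries (-0.48 to 0.15), and for Dmrtc1a with limma-voom (-0.07), Sertoli sizes (-0.18), the subset term (-0.06), subset 2 (-0.58) and left-out libraries (-0.33 to 0.18). They also turned for Hsd17b3 (-0.01) and Kank1 (-0.11) with Sertoli sizes, and for Kank1 (-0.06) and Cdkn2b (0.03) in subset 2, while Kank1 ran from -0.02 to 0.18 over left-out libraries. None of these passed the test in any of these fits. Members with under 10 counts in most libraries were limited by depth.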
